A study of Mus musculus with 19 samples.

Results

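The genes described here code for the matrix metalloproteinases (Mmp), the ADAMTS proteases (Adamts) and the tissue inhibitors of metalloproteinases (Timp). They were chosen by name, not by any measured value: all genes of the deposited table with any count and a name of the form Mmp, Adamts or Timp followed by a number, leaving out Mmp8 and Mmp9. This gave 40 of 36682 genes, of which 17 are Mmp, 19 Adamts and 4 Timp genes. A further 4 names of these families (Mmp1a, Mmp1b, Mmp7 and Mmp20) had 0 counts in every library and are not included.

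RNA was sequenced from dorsal root ganglia of the lumbar levels L3 to L5, the clusters of sensory nerve cell bodies that serve the hindlimb and knee. All mice were male and homozygous for MaFIA (macrophage Fas-induced apoptosis), a transgene under the Csf1r promoter through which the dimerizing drug AP20187 triggers death of macrophages and other Csf1r-expressing myeloid cells. The 4 groups were mice given AP20187 (n = 5) or vehicle (n = 5) at 8 weeks after DMM, the destabilization of the medial meniscus that is used as a knee osteoarthritis model, and age-matched naive mice given AP20187 (n = 4) or vehicle (n = 5). AP20187 or vehicle was injected intraperitoneally once a day for 5 days, the ganglia of the operated side were pooled, and stranded poly(A) libraries were made. Every group carried the transgene, no group had sham surgery, and the age in weeks is not given in the sources used here. The drug was not given to mice without the transgene in these libraries, so effects of AP20187 itself and of cell death cannot be told apart.

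Matrix metalloproteinases are zinc-dependent endopeptidases, made as inactive precursors, that cut collagens, laminins, proteoglycans and many cell surface and signalling proteins. ADAMTS proteases are secreted relatives with thrombospondin repeats that process procollagens and cut proteoglycans such as aggrecan and versican. TIMPs bind and block the active sites of MMPs, and TIMP-3 also those of several ADAMTS proteases. In peripheral nerve and ganglia these enzymes are known from nerve injury, where they act on the basement membrane, on myelin and on cytokine release, and in joints MMP-13, ADAMTS-4 and ADAMTS-5 are the best known cartilage-degrading enzymes.

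Libraries held 60984830 to 74691396 counts. Sensory neuron genes were well detected in each group: Prph, which codes for peripherin of small sensory neurons, ran from 177 to 690.0 CPM in DMM AP20187, 664 to 1384 in DMM vehicle, 199 to 905 in naive AP20187 and 936 to 1480.1 in naive vehicle. CPM is the count scaled to the TMM-normalised library size. Csf1r, whose promoter drives the transgene, lay at 30.6 to 104 CPM in DMM AP20187 and 32.7 to 147 in DMM vehicle, and at 57.8 to 86.8 in naive AP20187 and 19.2 to 98.2 in naive vehicle, so the groups overlapped. The numbers of the DMM vehicle libraries fall into 2 series, 32 to 34 and 63 to 64, and DMM vehicle 64 had the highest granulocyte, fibroblast, osteoblast and osteoclast marker scores of its group. In bulk ganglia, a gene's level changes in the same way when the cells that express it become fewer and when each cell holds less of its RNA, and these cannot be told apart. Per-library values below follow the order of the library numbers: 58 to 62 for DMM AP20187, 32, 33, 34, 63 and 64 for DMM vehicle, 1, 3, 4 and 5 for naive AP20187, and 1 to 5 for naive vehicle.

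Levels in ganglia of unoperated mice given vehicle were compared between genes in FPKM, which scales fragments to gene length and library size. In naive vehicle ganglia, Timp2 was the most abundant transcript of the set at 158 ± 30.8 FPKM (SD, n = 5), followed by Timp3 at 40.2 ± 11.4 FPKM. TIMP-2 inhibits most MMPs and, together with the membrane protease MMP-14, also takes part in the activation of pro-MMP-2, and TIMP-3 is bound to the matrix and inhibits several ADAMTS and ADAM proteases as well. The proteases with the highest levels were Mmp25 (14.2 ± 3.02 FPKM) and Mmp15 (13.2 ± 3.21 FPKM), which code for membrane-anchored enzymes, then the gelatinase gene Mmp2 (9.73 ± 6.44 FPKM) and Mmp24 (8.14 ± 2.49 FPKM), a membrane-type protease gene of neurons. Of all neighbours in this order from Timp2 down to the last gene with any signal, only Timp2 and Timp3, and Timp3 and Mmp25, had ranges that did not overlap. The most abundant Adamts genes were Adamts1 at 4.73 ± 1.68 FPKM and Adamts5 at 4.35 ± 0.762 FPKM. In all, 18 of the 40 genes had a mean of at least 1 FPKM, 4 of them at least 10 FPKM, and 8 were under 0.1 FPKM, among them Mmp3 and Mmp12, with means of 0.0768 ± 0.0821 and 0.0492 ± 0.0353 FPKM. Mmp10 and Mmp21 were listed at 0 in all 5 naive vehicle libraries. Timp2 and Timp3 together held 64.1% to 74.4% of the summed FPKM of the 40 genes in naive vehicle, 54.6% to 72.8% in DMM vehicle, 55.5% to 70.0% in naive AP20187 and 46.9% to 57.7% in DMM AP20187. The DMM AP20187 range overlapped those of DMM vehicle and naive AP20187, and the naive AP20187 and DMM vehicle ranges overlapped that of naive vehicle.

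**Figure D1:**
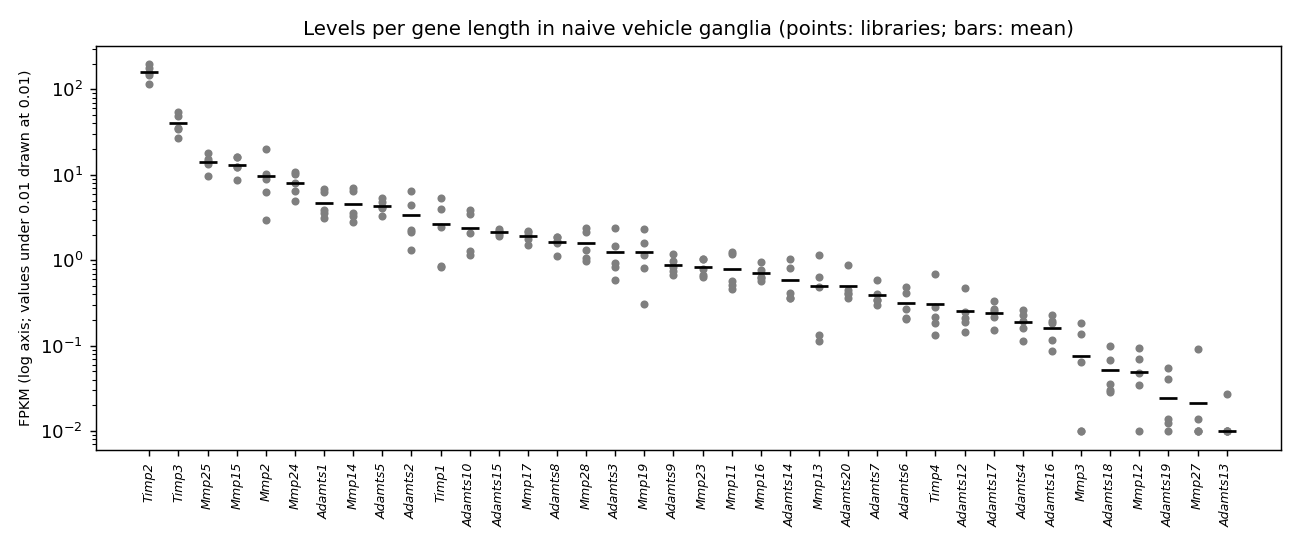
FPKM of each gene with signal in the 5 naive vehicle libraries (log axis), ordered by the mean, which is drawn as a bar; points are libraries. Timp2 and Timp3 stand above all proteases, of which Mmp25, Mmp15 and Mmp2 are the highest.

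The effect of AP20187 was tested in DMM and in naive mice separately, in a single model of all 19 libraries (edgeR's quasi-likelihood test, Benjamini-Hochberg adjustment over 22778 tested genes, threshold 0.05). Of the 40 genes 37 were tested, and Mmp10, Mmp21 and Adamts13 had too few counts. In DMM mice 10 of the 37 passed, against 23.8% of all tested genes: 7 were higher with AP20187, against 11.3% of all genes, and 3 were lower, against 12.4%. The share of 27% of the family genes is thus near that of all genes. In naive mice 7 of the 37 passed (18.9%, against 11.2% of all tested genes), all of them higher with AP20187, against 8.61% higher and 2.57% lower among all genes. The median log2 fold change of the 37 genes was 0.116 in DMM (-0.0963 over all tested genes) and 0.0589 in naive mice (-0.0662 over all). The stromelysin gene Mmp3, Mmp19, Mmp25, Mmp27, the aggrecanase gene Adamts4 and the inhibitor gene Timp1 were higher with AP20187 in both. Adamts1 passed in DMM only and the macrophage elastase gene Mmp12 in naive mice only, and Timp2, Mmp15 and Adamts20 were lower in DMM only. The remaining 26 tested genes passed in neither.

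**Figure D2:**
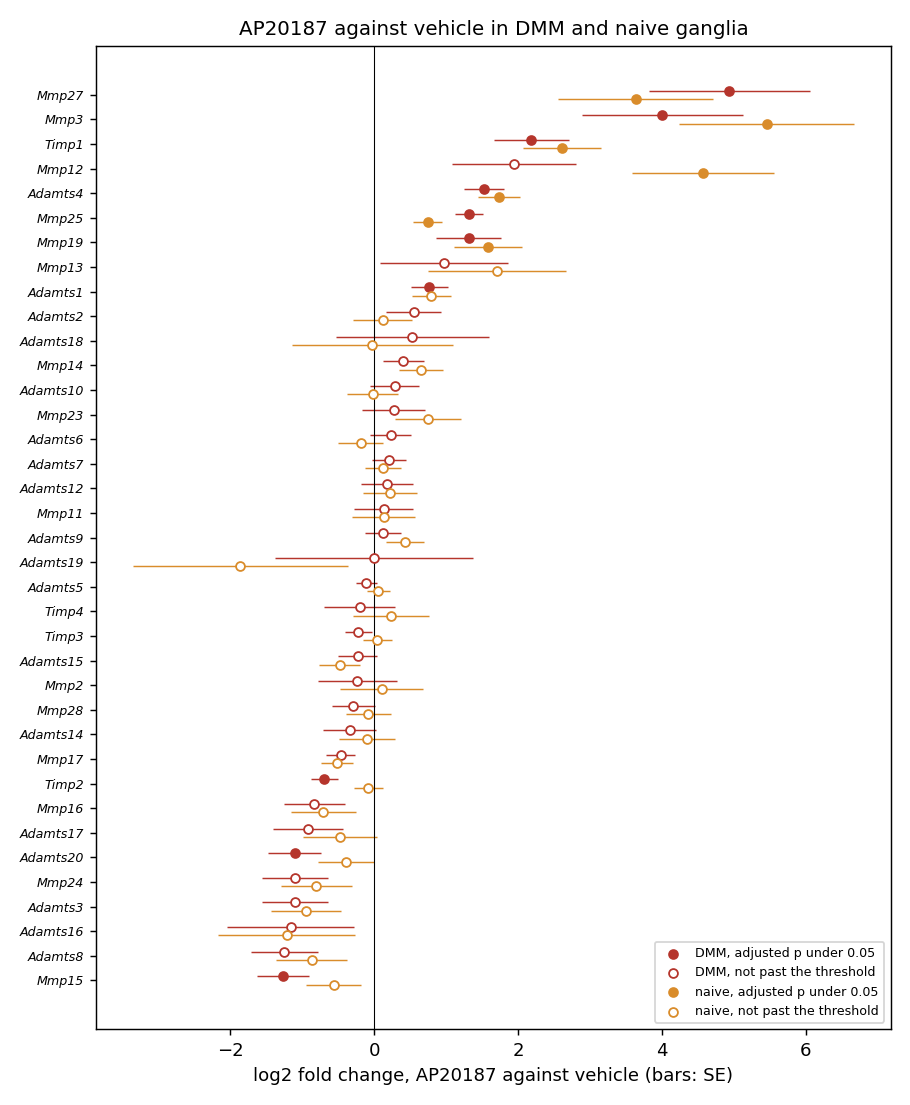
Log2 fold change of AP20187 against vehicle (x axis, bars are SE) for the 37 tested genes, in DMM (red) and naive (orange) mice; filled points have an adjusted p under 0.05. Mmp27, Mmp3, Timp1 and Adamts4 are to the right in both, and the lower calls, Timp2, Mmp15 and Adamts20, are filled in DMM only.

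The DMM counts moved with the choice of DMM vehicle libraries, over the 37 genes and over all tested genes alike. With only DMM vehicle 63 and 64 as controls 2 of the 37 passed (Mmp25 and Mmp27), against 4.73% of all genes. With only 32 to 34 it was 18, against 36.3%, and without DMM vehicle 64 it was 17, against 34.0%. With 63 and 64 alone the controls fell from 5 libraries to 2, and a lost call then does not by itself show a smaller change. With 63 and 64 alone the log2 fold changes of the genes that lost their call were 1.40 for Adamts4 (all 5 controls 1.53; adjusted p 0.0579 with the 2), -1.12 for Adamts20 (all 5 controls -1.10; adjusted p 0.215 with the 2), 0.60 for Adamts1 (all 5 controls 0.76; adjusted p 0.388 with the 2) and -0.49 for Timp2 (all 5 controls -0.69; adjusted p 0.277 with the 2). They were 3.33 for Mmp3 (all 5 controls 4.01; adjusted p 0.237 with the 2), 1.45 for Timp1 (all 5 controls 2.18; adjusted p 0.225 with the 2), -0.68 for Mmp15 (all 5 controls -1.27; adjusted p 0.426 with the 2) and 0.64 for Mmp19 (all 5 controls 1.31; adjusted p 0.575 with the 2). Each kept its direction, those of Adamts20 and Adamts4 moved least, and each adjusted p here is the highest of that gene over its 17 alternatives.

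Among the inhibitors, Timp1 rose with AP20187 and Timp2 fell in DMM mice. Timp1 codes for the inflammation-induced member of the family, a secreted inhibitor of most soluble MMPs (chromosome X: 20736405 to 20740974, GRCm39, plus strand). Timp1 was at 15.2, 11.9, 17.2, 13.7 and 9.80 CPM in DMM AP20187 and at 1.82, 1.30, 1.80, 3.13 and 6.86 CPM in DMM vehicle. In naive mice Timp1 was at 15.0, 24, 13.9 and 6.69 CPM with AP20187 and 2.25, 0.840, 3.52, 4.86 and 0.775 CPM with vehicle. Every AP20187 library lay above every vehicle library of the same surgery group, and DMM vehicle 64 was the highest of the vehicle libraries. Timp1 was 4.54-fold higher in DMM (log2 fold change 2.18, SE 0.52, adjusted p 0.00708) and 6.09-fold higher in naive mice (2.61, SE 0.54, adjusted p 0.00577). The Timp1 locus lies within Syn1, a neuronal gene on the opposite strand with more counts, and whether the counting used strand is not given in the sources used here.

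Timp2 (chromosome 11: 118191895 to 118246566, minus strand) was at 341, 309, 314, 452 and 332 CPM in DMM AP20187 and 532, 699, 593, 606 and 399 CPM in DMM vehicle. The naive libraries held 514, 480.2, 662 and 743 CPM with AP20187 and 581, 810.2, 451, 614 and 712 CPM with vehicle. DMM AP20187 libraries were lowest of all apart from 61, which lay above DMM vehicle 64, and the naive groups overlapped widely. In DMM Timp2 was 1.62-fold lower (log2 fold change -0.69, SE 0.19, adjusted p 0.0156), and in naive mice the change was -0.08 (SE 0.20, adjusted p 0.814). The difference between the DMM and naive responses of Timp2 did not pass its own test (interaction -0.61, SE 0.28, adjusted p 0.615). Timp3 ranged over 199.6 to 319 CPM in DMM AP20187, 261 to 375 in DMM vehicle, 275 to 410.4 in naive AP20187 and 225 to 455 in naive vehicle, and passed in neither comparison (DMM -0.22, SE 0.19, adjusted p 0.443; naive 0.045, SE 0.20, adjusted p 0.9). Timp4, the least abundant inhibitor gene, ranged over 0.733 to 2.64 CPM in DMM AP20187 and 0.851 to 2.46 CPM in DMM vehicle. Its naive ranges were 1.25 to 4.84 CPM with AP20187 and 0.855 to 4.23 CPM with vehicle, each with library 4 as the highest, and neither comparison passed (adjusted p 0.814 in DMM and 0.788 in naive). Timp3 and Timp4 lie within Syn3 and Syn2 on the opposite strand.

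**Figure D3:**
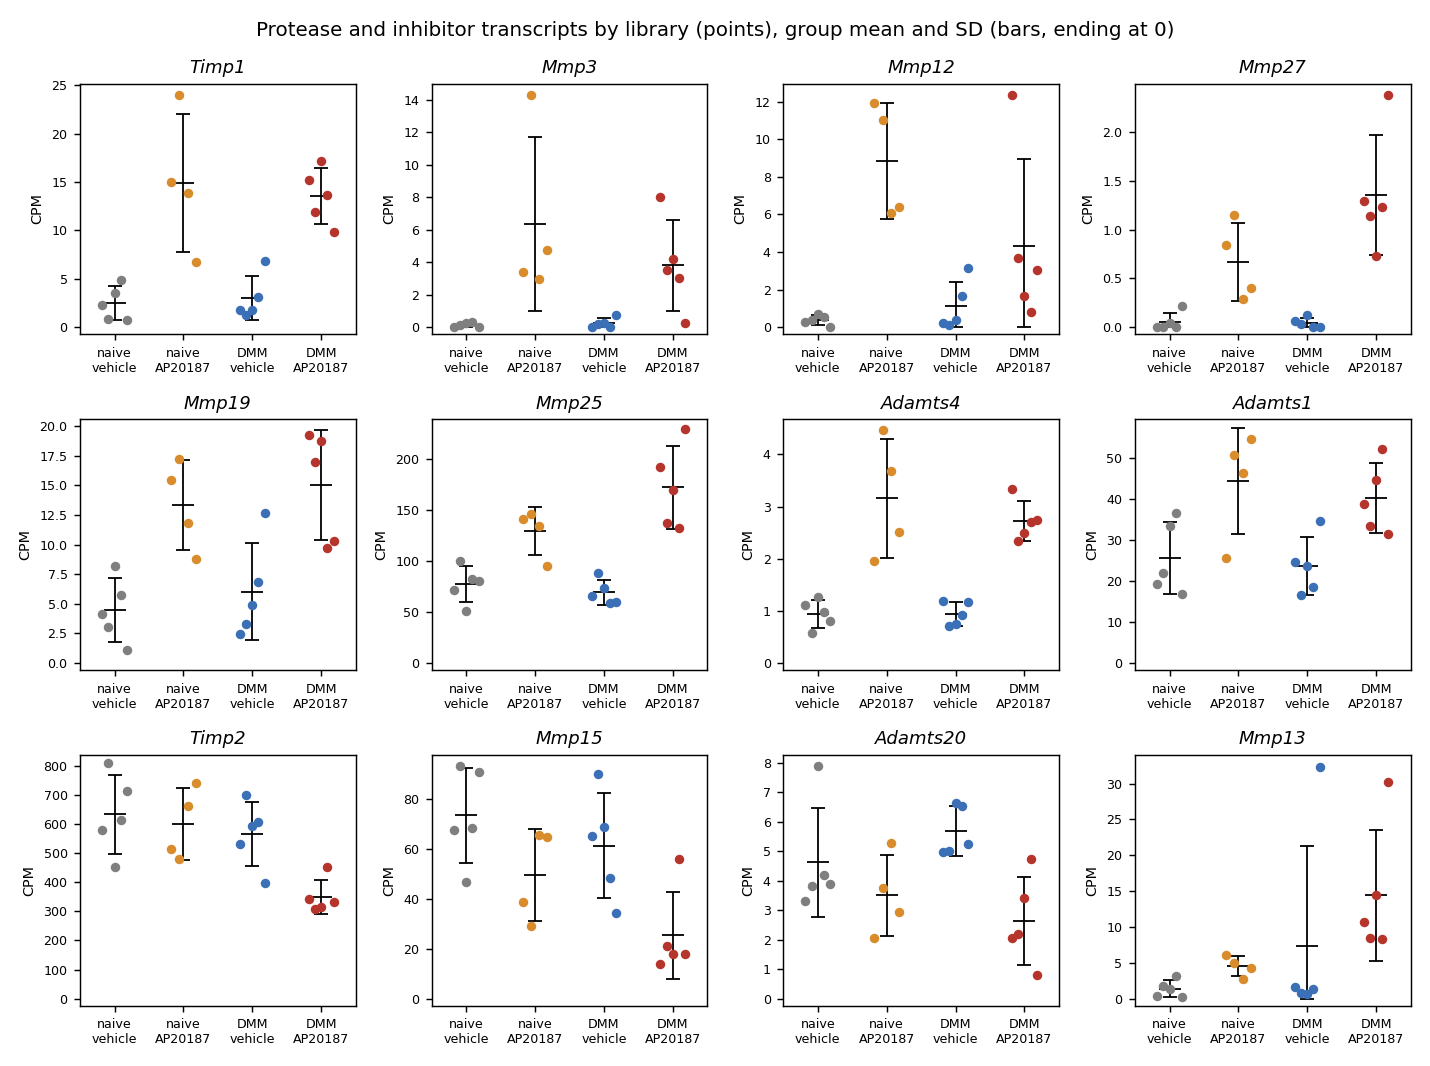
CPM of 12 genes in each library (points, by group), with group mean and SD as bars that end at 0. Timp1, Mmp27 and Adamts4 separate AP20187 from vehicle in both surgery groups, Mmp15 and Adamts20 are low in most DMM AP20187 libraries, and 1 DMM vehicle library stands high for Mmp13.

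A cluster of metalloproteinase genes on chromosome 9 held the largest fitted increases of the 37 genes, those of Mmp27 and Mmp3 in DMM and of Mmp3, Mmp12 and Mmp27 in naive mice. Within 308.9 kb on the plus strand (GRCm39) lie Mmp13 (7272514 to 7283331), Mmp12 (7344381 to 7369499), Mmp3 (7445822 to 7455975), Mmp10 (7502353 to 7510241) and Mmp27 (7571397 to 7581416), 5 of the 40 genes. Promoters of such inducible MMP genes are known for a site of the AP-1 factors (Fos and Jun), so the motif TGANTCA, which reads the same on both strands, was searched in the RefSeq promoter windows (250 bases before to 50 after a start, build GRCm38.p6). The table held 29 windows for 27 of the 40 genes, and 4 of the 29 (13.8%) held the motif, against 2565 of 32851 windows in the whole table (7.81%). The 4 were Mmp13, Mmp12, Mmp3 and Mmp10, all of this cluster, while the window of Mmp27 held none. They are printed because the motif was found in them, with it in capitals, 5′ to 3′ on the plus strand.
Mmp13, chr9:7272459-7272505: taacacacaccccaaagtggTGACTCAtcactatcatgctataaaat
Mmp12, chr9:7347310-7347356: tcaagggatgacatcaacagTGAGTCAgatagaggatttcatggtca
Mmp3, chr9:7445756-7445802: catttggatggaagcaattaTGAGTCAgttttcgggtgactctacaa
Mmp10, chr9:7502259-7502305: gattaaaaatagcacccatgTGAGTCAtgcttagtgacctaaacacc
The motif began 35 bases before the start in Mmp13, 44 in Mmp12, 46 in Mmp3 and 63 in Mmp10. Mmp12 has 2 windows in the table, and the other one held no match. Of the genes higher with AP20187 in either comparison, 6 had a window and 2 of them, Mmp3 and Mmp12, held the motif. Of the 3 lower genes none did. No window was listed for Mmp2, Mmp16, Mmp17, Mmp19, Adamts4, Adamts5, Adamts6, Adamts7, Adamts8, Adamts10, Adamts15, Adamts16 and Adamts19. A match of letters does not show that a factor was bound in these ganglia.

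Mmp3 codes for stromelysin-1, which cuts proteoglycans, fibronectin and laminin and activates other pro-MMPs. It was at 3.42, 14.3, 2.99 and 4.73 CPM in naive AP20187 and at 0, 0.124, 0.253, 0.339 and 0 CPM in naive vehicle. In DMM mice Mmp3 was at 8.00, 3.52, 4.2, 3.06 and 0.255 CPM with AP20187 and 0, 0.164, 0.257, 0 and 0.751 CPM with vehicle. The naive groups did not overlap, and in DMM only AP20187 library 62 lay among the vehicle libraries. The log2 fold change of Mmp3 was 5.46 in naive mice (SE 1.22, adjusted p 0.00873) and 4.01 in DMM (SE 1.12, adjusted p 0.0168). In raw counts the vehicle libraries held 0 to 51 in DMM and 0 to 21 in naive mice, so the denominators of these fold changes rest on few counts.

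Mmp12 codes for macrophage elastase, named for the cells in which it was found. It was at 11.9, 11, 6.05 and 6.37 CPM in naive AP20187 and 0.267, 0.389, 0.680, 0.516 and 0 CPM in naive vehicle. In DMM mice Mmp12 was at 12.3, 3.69, 1.68, 0.794 and 3.06 CPM with AP20187 and 0.247, 0.134, 0.393, 1.65 and 3.16 CPM with vehicle. All naive AP20187 libraries were far above the naive vehicle ones, whereas DMM vehicle 63 and 64 lay within the range of DMM AP20187. In raw counts the naive vehicle libraries held 0 to 51, so the denominator of the naive fold change rests on few counts. Mmp12 passed in naive mice (log2 fold change 4.57, SE 0.99, adjusted p 0.00749) and not in DMM (1.95, SE 0.87, adjusted p 0.108). Without DMM vehicle 64 it passed in DMM as well (adjusted p 0.0228; 0.00570 to 0.703 over its 17 alternatives). The interaction of surgery and AP20187 for Mmp12 was -2.62 (SE 1.24, adjusted p 0.646), so a different response in DMM was not shown. The macrophage marker genes, 12 of 12 tested and none at 0 throughout, summed to 501 to 863 CPM in naive AP20187 and 99.5 to 523 CPM in naive vehicle, and to 269.6 to 1104 and 181 to 668 CPM in the DMM groups. Their part in the Mmp12 result was not tested.

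Mmp13, the gene of collagenase-3, which cuts fibrillar collagen in cartilage and bone, was at 10.8, 8.41, 14.4, 8.28 and 30.2 CPM in DMM AP20187 and 1.59, 0.880, 0.696, 1.34 and 32.3 CPM in DMM vehicle. The naive libraries held 6.10, 5.05, 2.74 and 4.26 CPM with AP20187 and 0.362, 1.79, 1.31, 3.19 and 0.321 CPM with vehicle. DMM vehicle 64 was the highest of all 19 libraries, while the 4 other DMM vehicle libraries lay below all DMM AP20187 libraries. With that library included Mmp13 did not pass in DMM (log2 fold change 0.97, SE 0.89, adjusted p 0.471). Without it the log2 fold change was 3.67 (adjusted p 0.000521; 0.000521 to 0.917 over its 17 alternatives). In naive mice the change was 1.70 (SE 0.96, adjusted p 0.244). The osteoblast markers, 6 of 8 tested, and the osteoclast markers, 5 of 6 tested, with none at 0 in all libraries, were also highest in DMM vehicle 64 among all libraries, with scores (mean log2 CPM) of 2.73 and 2.52. The summed osteoblast markers ran over 19.4 to 78.3 CPM in DMM vehicle, 18.6 to 64.2 in DMM AP20187, 22.9 to 34.8 in naive AP20187 and 17.9 to 40.2 in naive vehicle. For the osteoclast markers the sums were 11.8 to 140.2, 26.1 to 52.4, 18.8 to 47.4 and 9.96 to 28.1 CPM in the same order, and the part of either list in the Mmp13 values was not tested.

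Mmp27 codes for a little-studied enzyme close to the stromelysins. It was at 1.29, 1.14, 0.733, 1.23 and 2.38 CPM in DMM AP20187 and 0.0617, 0.0298, 0.121, 0 and 0 CPM in DMM vehicle. Naive mice had 0.847, 1.15, 0.286 and 0.405 CPM with AP20187 and 0, 0, 0.0400, 0 and 0.214 CPM with vehicle. In raw counts these are 48 to 140 and 0 to 8 in DMM, and 17 to 68 and 0 to 16 in naive mice, without overlap in either. Fitted log2 fold changes of Mmp27 were 4.93 (SE 1.12, adjusted p 0.00547) in DMM and 3.63 in naive mice (SE 1.08, adjusted p 0.0372). Of the 19 naive vehicle counts of Mmp27, 16 came from library 5, and without it the naive value was 5.76 (adjusted p 0.00800). The naive call did not pass in 9 of its 16 alternatives (adjusted p 0.00463 to 0.129). Over all alternatives the log2 fold change of Mmp27 ran from 0.29 to 5.76 in naive mice and from 0.62 to 9.46 in DMM. Both lowest values are on the log2(FPKM + 1) scale, which understates changes of low genes, and the 9.46 is a fitted value against DMM vehicle 63 and 64, both at 0 counts, and has no interpretable size. Mmp27 begins 2910 bases after the end of Mmp8 on the same strand. Mmp8, the neutrophil collagenase gene, had 319 to 656 CPM in DMM AP20187, 26.9 to 447 in DMM vehicle, 176 to 443 in naive AP20187 and 67.1 to 175 in naive vehicle. Per 100 counts of Mmp8, pooled over a group, there were 0.292 counts of Mmp27 in DMM AP20187, 0.0244 in DMM vehicle, 0.223 in naive AP20187 and 0.0557 in naive vehicle. By library this ratio ran over 0.170 to 0.385 in DMM AP20187, 0 to 0.229 in DMM vehicle, 0.132 to 0.259 in naive AP20187 and 0 to 0.319 in naive vehicle, so the groups overlapped. The highest vehicle ratios rest on few counts of Mmp27: 4 against 1744 of Mmp8 in DMM vehicle 32, and 16 against 5018 in naive vehicle 5. DMM vehicle 64 had 30381 counts of Mmp8, within the 21290 to 38633 of DMM AP20187, and 0 of Mmp27. The part of reads that run past the end of Mmp8 was not tested.

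**Figure D4:**
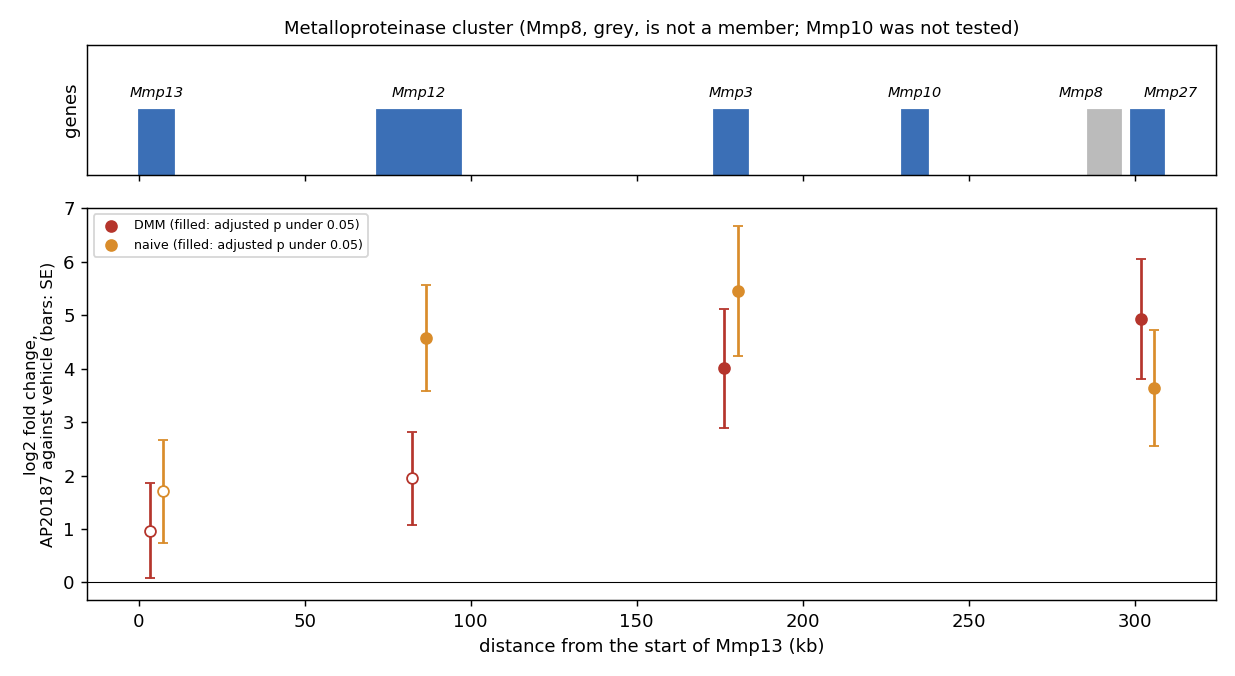
Genes of the cluster on chromosome 9 by distance from the start of Mmp13 in kb (top; Mmp8 in grey is not among the 40 genes), and the log2 fold change of AP20187 against vehicle with SE (bottom; filled points have an adjusted p under 0.05). Mmp3 and Mmp27 are filled in both DMM (red) and naive (orange) mice, Mmp12 in naive mice only and Mmp13 in neither.

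The membrane-type genes moved in different directions. Mmp25 codes for MT6-MMP or leukolysin, a glycolipid-anchored protease best known from neutrophils (chromosome 17: 23847285 to 23864251, minus strand). It was at 192, 137, 169, 133 and 230.0 CPM in DMM AP20187 and 66.0, 88.2, 73.3, 59.3 and 59.5 CPM in DMM vehicle. Naive mice had 141, 146, 135 and 95.3 CPM with AP20187 and 72.0, 100.3, 51.1, 82.6 and 80.4 CPM with vehicle. The DMM groups did not overlap, and in naive mice only AP20187 library 5 and vehicle library 2 crossed. Mmp25 was 2.49-fold higher in DMM (log2 fold change 1.31, SE 0.20, adjusted p 0.000359; 4.12e-08 to 0.00881 over its 17 alternatives) and 1.67-fold higher in naive mice (0.74, SE 0.21, adjusted p 0.0265). The naive call was lost in 6 of its 16 alternatives (adjusted p 0.0127 to 0.112), 5 of which leave out naive AP20187 1 or 3 or naive vehicle 1, 3 or 5. Markers of neutrophils and granulocyte precursors, 13 of 13 tested and none at 0 throughout, summed to 16835 to 29113 CPM in DMM AP20187, 391 to 7811 in DMM vehicle, 8011 to 27424 in naive AP20187 and 824 to 2227 in naive vehicle. DMM vehicle 64 had the highest granulocyte score of the vehicle libraries (7.91) and held 59.5 CPM of Mmp25. Naive AP20187 5 had a lower score (7.22) and held 95.3 CPM. The part of granulocytes in the Mmp25 result was not tested.

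Mmp15, which codes for the transmembrane protease MT2-MMP (chromosome 8: 96078896 to 96101708, plus strand), was at 14.1, 20.9, 17.9, 56.0 and 18 CPM in DMM AP20187 and 65.1, 89.9, 68.5, 48.2 and 34.3 CPM in DMM vehicle. Naive mice had 38.6, 29.2, 65.4 and 64.8 CPM with AP20187 and 67.5, 93.1, 46.8, 68.3 and 90.6 CPM with vehicle. In DMM AP20187 all libraries but 61 were below every other library of the study. Mmp15 was 2.41-fold lower in DMM (log2 fold change -1.27, SE 0.36, adjusted p 0.0181), with no call in naive mice (-0.56, SE 0.38, adjusted p 0.326) and none for the interaction (-0.70, SE 0.51, adjusted p 0.850). The DMM call was also lost without DMM AP20187 58 (adjusted p 0.0515) or DMM vehicle 33 (0.0535), within 0.000762 to 0.426 over its alternatives. Markers of sensory neurons, 13 of 13 tested and none at 0 throughout, summed to 2589.8 to 8879 CPM in DMM AP20187, 7048 to 17772 in DMM vehicle, 2991 to 12935 in naive AP20187 and 10282 to 19289 in naive vehicle. Library 61 had the highest neuron score of the DMM AP20187 group (8.85, next 8.28), still below every vehicle library but DMM vehicle 64 (8.32). It also had the highest myelinating Schwann score of its group (7.37, next 6.40), but not the highest satellite glia score (7.14, range 6.52 to 7.39). Of 8 Schwann markers 3 were lower in DMM (12.4% of all genes) and 0 in naive mice (2.57%). Of 8 satellite glia markers 2 were lower in DMM and 1 in naive mice. The part of neuronal or glial RNA in the Mmp15, Timp2 and Adamts20 values was not tested.

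Mmp14 codes for MT1-MMP, a collagenase of the cell surface and the activator of pro-MMP-2. It was at 49.0, 44.4, 44.0, 31.3 and 32.1 CPM in DMM AP20187 and 20.6, 19.5, 23.2, 34.9 and 53.4 CPM in DMM vehicle. In naive mice Mmp14 ran over 35.6 to 57.0 CPM with AP20187 and 17.1 to 41.6 CPM with vehicle. The groups overlapped in both, and neither comparison passed (DMM 0.41, SE 0.29, adjusted p 0.335; naive 0.65, SE 0.31, adjusted p 0.168). Without DMM vehicle 64 Mmp14 passed in DMM (adjusted p 0.0469; 0.0157 to 0.905 over its 17 alternatives). Mmp2, the gene of the gelatinase that MT1-MMP activates, was at 63.2, 62.4, 61.7, 24.3 and 13.6 CPM in DMM AP20187 and 26.4, 18, 22.5, 79.5 and 119 CPM in DMM vehicle. Its naive ranges were 26.9 to 51.3 CPM with AP20187 and 10.2 to 67.6 CPM with vehicle. DMM vehicle 63 and 64 held the highest values of all libraries and 32 to 34 were among the lowest. Neither comparison passed for Mmp2 (DMM -0.24, SE 0.55, adjusted p 0.800; naive 0.10, SE 0.58, adjusted p 0.922), and its direction in DMM turned without DMM vehicle 64 (0.30). Fibroblast markers, 10 of 10 tested and none at 0 throughout, summed to 2568 to 16893 CPM in DMM vehicle, 5950.1 to 19986 in DMM AP20187, 11860.1 to 23659 in naive AP20187 and 2089 to 9942 in naive vehicle. Their part in the Mmp2 values was not tested.

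**Figure D5:**
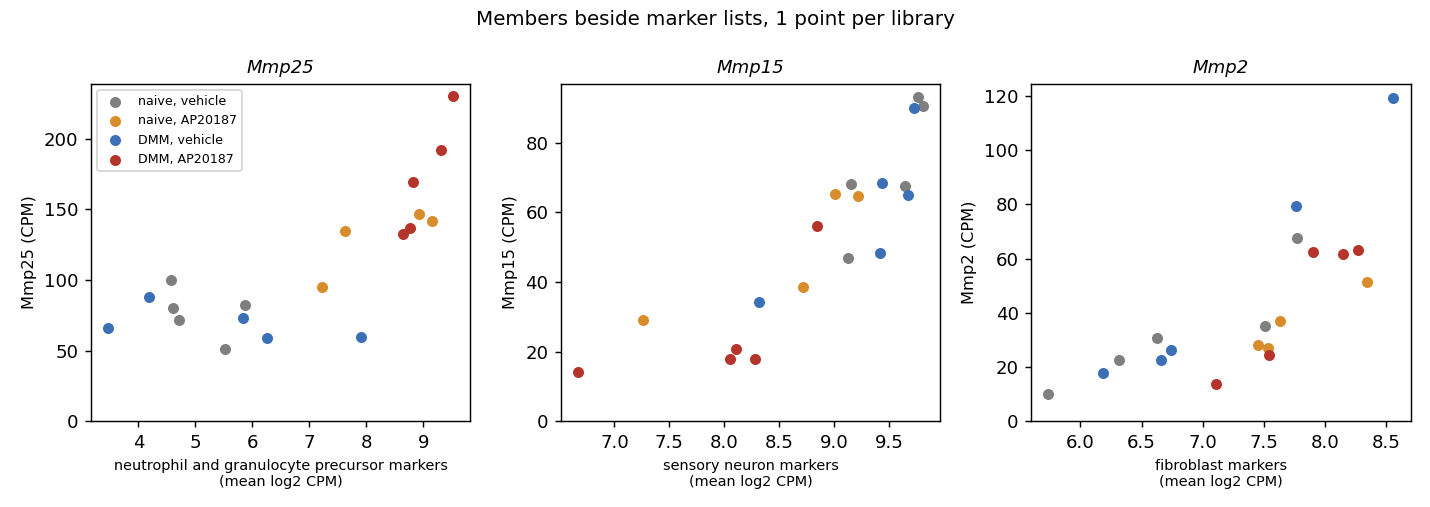
CPM of Mmp25, Mmp15 and Mmp2 (y axes) against the mean log2 CPM of marker genes of neutrophils and granulocyte precursors, sensory neurons and fibroblasts (x axes), with 1 point per library and colours for the groups. Mmp25 is highest in DMM AP20187 62 and 58, which have the highest granulocyte scores. DMM vehicle 64 has the highest granulocyte score of the vehicle libraries (7.91) but 59.5 CPM of Mmp25. DMM AP20187 libraries are low for Mmp15 except 61. For neuron markers all of them are low, and 61 (8.85) is above only DMM vehicle 64 (8.32) among the vehicle libraries. Mmp2 is highest in the DMM vehicle library with the highest fibroblast score.

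Mmp19, whose enzyme cuts basement membrane proteins, was at 19.2, 17, 18.8, 9.75 and 10.3 CPM in DMM AP20187 and 2.48, 3.28, 4.89, 6.85 and 12.7 CPM in DMM vehicle. In naive mice Mmp19 was at 15.5, 17.2, 11.8 and 8.81 CPM with AP20187 and 4.14, 3.05, 8.2, 5.78 and 1.14 CPM with vehicle. The naive groups did not overlap in CPM but met in FPKM (2.32 to 4.04 with AP20187 and 0.312 to 2.32 with vehicle), and in DMM only vehicle library 64 reached the AP20187 range. The gene was 2.49-fold higher in DMM (log2 fold change 1.31, SE 0.45, adjusted p 0.0432) and 2.99-fold higher in naive mice (1.58, SE 0.48, adjusted p 0.0393). Both calls were near the threshold: 9 of 17 alternatives in DMM and 8 of 16 in naive mice did not pass (adjusted p 0.00447 to 0.575 and 0.00796 to 0.116). The other tested Mmp genes (Mmp11, Mmp16, Mmp17, Mmp23, Mmp24 and Mmp28) passed in no comparison. Of these Mmp24, the neuronal membrane-type gene, ranged over 0.800 to 4.52 FPKM in DMM AP20187, 2.28 to 9.08 in DMM vehicle, 1.24 to 6.90 in naive AP20187 and 4.96 to 10.9 in naive vehicle, with log2 fold changes of -1.10 (SE 0.46, adjusted p 0.0886) for DMM and -0.81 in naive mice (SE 0.49, adjusted p 0.283).

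Among the 7 ADAMTS genes of the proteoglycan-cutting type, 2 were higher and 1 lower with AP20187 in DMM (11.3% and 12.4% of all tested genes), and 1 was higher in naive mice (8.61% of all). Adamts4 (aggrecanase-1; chromosome 1: 171077990 to 171088206, plus strand) was at 3.33, 2.34, 2.49, 2.71 and 2.75 CPM in DMM AP20187 and 1.19, 0.701, 0.741, 0.922 and 1.16 CPM in DMM vehicle. In naive mice Adamts4 was at 1.95, 4.48, 3.68 and 2.51 CPM with AP20187 and 1.12, 0.575, 1.27, 0.968 and 0.802 CPM with vehicle. Every AP20187 library was above every vehicle library in both, and the vehicle libraries of both groups lay between 0.575 and 1.27 CPM. The gene was 2.89-fold higher in DMM (log2 fold change 1.53, SE 0.28, adjusted p 0.00146) and 3.33-fold higher in naive mice (1.74, SE 0.29, adjusted p 0.00161).

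Adamts1 and Adamts5 lie side by side on the minus strand of chromosome 16, 53.1 kb apart (85590715 to 85600001 and 85653061 to 85698716). Adamts1, an inducible versican- and aggrecan-cutting enzyme gene, was at 38.9, 33.4, 44.7, 52.3 and 31.5 CPM in DMM AP20187 and 24.8, 16.6, 23.6, 18.6 and 34.8 CPM in DMM vehicle. Its naive libraries held 25.6, 50.8, 46.4 and 54.8 CPM with AP20187 and 19.4, 21.9, 33.4, 36.6 and 16.9 CPM with vehicle. In DMM the groups crossed only at vehicle library 64, and in naive mice AP20187 library 1 lay within the vehicle range. Adamts1 passed in DMM (1.70-fold, log2 fold change 0.76, SE 0.26, adjusted p 0.0386) and had a similar fitted change in naive mice that did not pass (0.79, SE 0.27, adjusted p 0.0642). The DMM call was lost in 11 of its 17 alternatives (adjusted p 0.0103 to 0.388), and the naive one was made in 3 of 16 (0.0275 to 0.176). Adamts5, the gene of aggrecanase-2, the main aggrecan-cutting enzyme of mouse cartilage, ranged over 36.9 to 62.7 CPM in DMM AP20187, 41.7 to 53.6 in DMM vehicle, 46.0 to 51.7 in naive AP20187 and 36.9 to 57.7 in naive vehicle. The 4 groups overlapped, and the fitted changes were -0.11 (SE 0.15, adjusted p 0.639) for DMM and 0.059 in naive mice (SE 0.15, adjusted p 0.821).

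Adamts20 codes for a versican-cutting enzyme known from melanoblast development. It was at 2.06, 2.21, 3.40, 4.73 and 0.798 CPM in DMM AP20187 and 4.97, 5.01, 6.64, 6.53 and 5.24 CPM in DMM vehicle. Naive mice had 2.06 to 5.28 CPM with AP20187 and 3.32 to 7.89 CPM with vehicle. The DMM groups did not overlap, with AP20187 library 61 the closest to vehicle, and the naive groups did. Adamts20 was 2.15-fold lower in DMM (log2 fold change -1.10, SE 0.37, adjusted p 0.0377), without a call in naive mice (-0.40, SE 0.39, adjusted p 0.510) or for the interaction (-0.71, SE 0.53, adjusted p 0.860). The DMM call was lost in 10 of its 17 alternatives (adjusted p 0.0101 to 0.215).

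The remaining 3 genes of this type, Adamts8, Adamts9 and Adamts15, passed in neither comparison. None of the 3 procollagen-processing genes (Adamts2, Adamts3 and Adamts14), of the 2 genes whose enzymes cut cartilage oligomeric matrix protein (Adamts7 and Adamts12), or of the 6 other tested Adamts genes passed. Adamts2 ranged over 2.86 to 5.79 FPKM in DMM AP20187, 1.68 to 6.26 in DMM vehicle, 2.50 to 4.18 in naive AP20187 and 1.33 to 6.54 in naive vehicle. Adamts3 was lower in fitted value in both comparisons, at -1.11 (SE 0.46, adjusted p 0.0843) for DMM and -0.94 in naive mice (SE 0.49, adjusted p 0.207). Over the 20 tested genes not described one by one by the naming rule, log2 fold changes ran from -1.25 to 0.55 in DMM and from -1.86 to 0.74 in naive mice, with smallest adjusted p of 0.0589 and 0.125.

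DMM and naive mice given the same injections were also compared. With vehicle, 0 of the 37 genes and 0% of all 22778 genes passed in edgeR, and 1 of the 37, Mmp13, had an unadjusted p under 0.05. DESeq2 and limma on FPKM gave 0 of the 37 as well. Mmp13 differed by 2.40 on the log2 scale (SE 0.94, adjusted p 1.00), a value that rested on DMM vehicle 64: without it the value was -0.30 (adjusted p 1.00; 0.0485 to 1.00 over its 17 alternatives). Adamts4, at 0.943 ± 0.228 CPM (SD, n = 5) in DMM vehicle and 0.946 ± 0.270 CPM (n = 5) in naive vehicle, and Adamts5, at 49.9 ± 4.78 and 48.0 ± 7.72 CPM, had log2 differences of -0.0047 (SE 0.28) and 0.055 (SE 0.15). Over the 20 tested genes outside the naming rule, log2 fold changes ran from -0.60 to 0.39.

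With AP20187, 0 of the 37 genes passed between DMM and naive mice, against 0.702% of all genes (0.263% higher and 0.439% lower in DMM), and 3 of the 37 had an unadjusted p under 0.05: Timp2, Mmp15 and Adamts6, of which Adamts6 was named after its value was seen. Timp2 was at 349.8 ± 58.6 CPM (SD, n = 5) in DMM AP20187 and 599.7 ± 124 CPM (n = 4) in naive AP20187, and no DMM library reached the naive range in CPM, while in FPKM the ranges overlapped (73.9 to 113 and 102 to 177; log2 fold change -0.78, SE 0.20, adjusted p 0.0725). DESeq2 called 1 of the 37, Timp2 (adjusted p 0.0115; 0.0115 to 0.221 over its 14 alternatives), and limma on log2(FPKM + 1) called 1, Mmp27, higher in DMM. Mmp15 differed by -0.96 (SE 0.37, adjusted p 0.208), and Adamts6, a gene involved in heart development, by 0.77 (SE 0.31, adjusted p 0.229). For the interaction of surgery and AP20187, 0 of the 37 passed in edgeR, in DESeq2 and in limma on FPKM, against 0.114% of all genes in edgeR (0.0483% higher and 0.0659% lower), and Mmp12 and Timp2 had an unadjusted p under 0.05 (0.0486 and 0.0386).

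Other genes of the same proteolytic system were examined in 5 lists, whose counts stand beside those of all tested genes: 11.3% higher and 12.4% lower with AP20187 in DMM, and 8.61% higher and 2.57% lower in naive mice. Of 8 genes of plasminogen activation, whose product plasmin activates several pro-MMPs, 2 were higher (11.3% of all genes) and 0 lower (12.4%) with AP20187 in DMM, and Plaur, Plau and Serpinb2 were among the higher genes in naive mice. Plaur, the urokinase receptor gene, ran over 54.8 to 102 CPM in DMM AP20187 and 9.61 to 41.4 in DMM vehicle, and over 28.1 to 60.5 and 8.75 to 17.9 CPM in naive mice (log2 fold change 2.05, SE 0.36, adjusted p 0.00115 in DMM, and 1.82, SE 0.37, adjusted p 0.00529 in naive mice). Plau, the urokinase gene, rose by 1.25 (adjusted p 0.00134) and 0.99 (adjusted p 0.0126). Serpinb2, a serpin gene whose product inhibits urokinase, passed in naive mice, at 2.55 (SE 0.78, adjusted p 0.0415).

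The ADAM family includes membrane proteases that release cell surface proteins, though not every member is an active protease. Of 11 ADAM genes, 4 were higher (11.3% of all genes) and 0 lower (12.4%) in DMM, and 3 were higher in naive mice (8.61% of all genes). The DMM genes were Adam17, Adam8, Adam15 and Adam12, and the naive ones Adam8, Adam17 and Adam12. Adam17, the gene of the tumour necrosis factor converting enzyme that TIMP-3 inhibits, ran over 44.6 to 55.0 CPM in DMM AP20187 and 21.6 to 35.2 in DMM vehicle (log2 fold change 0.84, adjusted p 0.00671). Adam8, a leukocyte protease gene, changed by 1.66 in DMM (adjusted p 0.0115) and by 1.61 in naive mice (adjusted p 0.0276).

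Of 11 genes of membrane-bound inhibitors, activators and co-factors, 2 were higher (11.3% of all genes) and 2 lower (12.4%) in DMM, and 1 was higher in naive mice (8.61%). Reck, which codes for a membrane-anchored inhibitor of MMPs, ran over 40.1 to 61.4 CPM in DMM AP20187 and 13.8 to 28.4 in DMM vehicle, and rose by 1.40 (SE 0.28, adjusted p 0.00281). In naive mice Reck was at 23.1 to 46.0 CPM with AP20187 and 10.5 to 30.4 CPM with vehicle (log2 fold change 0.95, SE 0.29, adjusted p 0.0436). Furin, the gene of a proprotein convertase that activates membrane-type MMPs, rose by 0.78 in DMM (adjusted p 0.00460). Tspan15, a tetraspanin gene whose product directs ADAM10, and Spock3, a testican gene of neurons, changed by -0.99 (adjusted p 0.000761) and -1.08 (adjusted p 0.0464) in DMM.

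Of 7 ADAMTS-like genes, which code for related matrix proteins without a protease domain, 0 were higher and 2 lower (12.4% of all genes) in DMM (Adamtsl2, -0.95, adjusted p 0.0167; Papln, -0.88, adjusted p 0.0484), and Papln was the 1 that was lower in naive mice (-1.44, adjusted p 0.0121). Of 14 genes of proteoglycans and glycoproteins that these enzymes cut, 1 was higher (11.3% of all genes) and 2 lower (12.4%) in DMM, and 1 was higher in naive mice (8.61%), again near the shares of all genes. The higher gene in both was Bgn, which codes for biglycan (1.30, adjusted p 0.0329 in DMM; 1.47, adjusted p 0.0382 in naive mice). The lower genes in DMM were Lamb1, of a laminin chain (-0.65, adjusted p 0.0168), and Bcan, of the neural proteoglycan brevican (-0.93, adjusted p 0.0351). No gene of the 5 lists passed in the comparisons of DMM with naive mice or for the interaction.

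Markers of further cell types moved with AP20187 as well, with none of the genes at 0 in all libraries. Their counts of called genes stand beside 11.3% higher and 12.4% lower of all tested genes in DMM, and 8.61% higher and 2.57% lower in naive mice. The 8 proliferation genes, of which 8 were higher in DMM and 7 in naive mice, summed to 910.1 to 2178 CPM in DMM AP20187 and 51.9 to 524 in DMM vehicle, and 375 to 1138 and 91.9 to 361 CPM in naive mice with AP20187 and vehicle. The 7 monocyte markers, 4 higher and 1 lower in DMM and 3 higher and 1 lower in naive mice, summed to 3367 to 8818 CPM in DMM AP20187 and 213 to 1760.3 in DMM vehicle, and 1711 to 5060.2 and 292 to 1165 CPM in naive mice. The 10 B lineage markers went the other way, with 9 lower in DMM and 8 in naive mice, at 48.3 to 116 CPM in DMM AP20187 and 171 to 237 in DMM vehicle, and 71.7 to 152 and 187 to 231 CPM in naive mice. For these 3 lists the AP20187 and vehicle sums did not overlap, in DMM or in naive mice. The scores (mean log2 CPM), in which each gene weighs the same, did overlap for the monocyte list: DMM vehicle 64 was at 7.25 with DMM AP20187 from 6.57, and naive vehicle 4 at 6.24 with naive AP20187 from 6.02. Of the erythroid markers, 8 of 9 tested, 5 were lower in DMM (12.4% of all genes) and 0 in naive mice (2.57%), with sums of 1298 to 5229.9 CPM in DMM AP20187 and 1597 to 26703 in DMM vehicle, and 1945 to 4286 and 3338 to 13311 CPM in naive mice. Of 6 megakaryocyte markers 2 were higher in DMM (11.3% of all genes) and 0 in naive mice (8.61%), at 95.6 to 309.9 CPM in DMM AP20187 and 13.5 to 184 in DMM vehicle, and 91.7 to 136 and 21.4 to 75.7 CPM in naive mice. The sums overlapped for both lists in DMM, and for the erythroid one in naive mice.

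Skeletal muscle and endothelial markers, with 8 of 8 tested in each list and none at 0 throughout, had fewer calls than these 3 lists. Muscle markers, 3 higher in naive mice (8.61% of all genes) and 2 lower in DMM (12.4%) with AP20187, summed to 17.2 to 147 CPM in DMM AP20187 and 14.2 to 1863 in DMM vehicle, and 1619.9 to 2505 and 12.3 to 430.4 CPM in naive mice. For endothelial markers, 3 higher in DMM (11.3% of all genes) and 2 in naive mice (8.61%), the sums were 198 to 367 CPM in DMM AP20187 and 102 to 202 in DMM vehicle, and 258 to 571 and 95.3 to 395 CPM in naive mice. The muscle sums did not overlap in naive mice, and the endothelial sums overlapped in both. The part of any of these cell types in the calls of Timp1, Timp2, Mmp3, Mmp12, Mmp15, Mmp19, Mmp25, Mmp27, Adamts1, Adamts4 and Adamts20 was not tested.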

How the data were processed

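Poly(A) RNA of 19 ganglion samples was sequenced from stranded TruSeq libraries, per the labels' protocols. The submitters' processing notes name cutadapt, HISAT2, StringTie and the build GRCm39, whereas their settings, the gene annotation and the use of strand in counting are not given in the sources used here. The authors deposited raw gene counts as whole numbers, and a further table that holds counts beside FPKM, in which the authors divided fragments by gene length and library total.

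Counts entered edgeR 4.0.16 (R 4.3.3; quasi-likelihood F test, TMM, filterByExpr with a minimum count of 10), in 1 model of 4 groups over 19 libraries with 15 residual degrees of freedom. Contrasts were AP20187 against vehicle in DMM and in naive mice, DMM against naive with either injection, and the interaction. P-values are two-sided, adjusted by Benjamini-Hochberg over all 22778 tested genes, with a threshold of 0.05. The labels do not say whether each sample is 1 mouse, so p-values measure the spread between these samples. Precision rests on 60984830 to 74691396 counts per library, and 3 counts, taken as the floor of detection, are 0.0400 to 0.0519 CPM. Samples were grouped by their labels. Marker scores are the mean log2 CPM of a list's tested genes with a prior count of 2. The procedure was tested on simulated data.

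Genes given in full were Timp1 to Timp4, Mmp2, Mmp3, Mmp12, Mmp13, Mmp14, Adamts1, Adamts4 and Adamts5, plus every member past the threshold that averaged 1 CPM or more in any group, 17 in all, and of each pathway list up to 4 genes per contrast. A few further members are named with values chosen after these were seen (Mmp24, Adamts2, Adamts3 and Adamts6). The members, lists, tests and alternatives were chosen with earlier results of these data known. Alternatives were RLE scaling, DESeq2 1.42.0, no filter, limma 3.58.1 on log2(FPKM + 1) and log2(FPKM + 0.1), leaving out each library, either number series of DMM vehicle, and a block on sample numbers shared by naive groups. Sequences are from RefSeq (GRCm38.p6), and gene positions are those of the deposited table (GRCm39). The transgene and protein sequences were not analysed here, and some genes are not reported here.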

Additional observations from a re-analysis of the deposited data

Results flagged for a closer look

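In 12 of 68 pairs of a gene and a group, over the 17 genes given in full, a single library stood far from the others by Dixon's criterion. Chance meets this criterion in about 1 in 20 groups if the values are normally distributed. CPM values, which are bounded at 0, need not be, and the pairs share libraries, so the 12 are not read as an excess. DMM AP20187 61 was the highest of its group for Timp2 (452 CPM, next 341) and for Mmp15 (56.0 CPM, next 20.9). DMM AP20187 58 was the highest for Mmp12 (12.3 CPM, next 3.69) and DMM AP20187 62 for Mmp13 (30.2 CPM, next 14.4). In DMM vehicle, library 64 was the highest for Mmp13 (32.3 CPM, next 1.59) and library 33 the lowest for Adamts5 (41.7 CPM, next 50.5). In naive AP20187, library 4 was the highest for Timp4 (4.84 CPM, next 1.33), library 3 the highest for Mmp3 (14.3 CPM, next 4.73) and library 5 the lowest for Adamts5 (45.98 CPM, next 51.2). In naive vehicle, library 4 was the highest for Timp4 (4.23 CPM, next 1.71), library 3 for Adamts20 (7.89 CPM, next 4.18) and library 5 for Mmp27 (0.214 CPM, next 0.0400).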

How the results depend on the processing

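The DMM count of 10 members called among 5410 genes depended on the controls: with DMM vehicle 32 to 34 only it was 18 members and 8450 genes, with 63 and 64 only 2 members and 1156 genes, and leaving out each library in turn gave 6 (without DMM AP20187 58 or DMM vehicle 33) to 17 members (without DMM vehicle 64) and 3212 to 7677 genes. In naive mice (7 members, 2548 genes) leaving out each library gave 4 (without naive AP20187 3 or naive vehicle 1) to 8 members (without naive AP20187 5) and 994 to 3452 genes, and DESeq2 gave 4356 genes, limma on log2(FPKM + 1) 4147 and on log2(FPKM + 0.1) 4225. For DMM against naive with vehicle (0 members, 0 genes), DMM vehicle 63 and 64 alone gave 1 member, Mmp13, and 541 genes. With AP20187 (0 members, 160 genes), DESeq2 gave 1 member, Timp2, and 1109 genes, no filter 73 genes, limma on log2(FPKM + 1) 1 member, Mmp27, and 1220 genes, and on log2(FPKM + 0.1) 1011 genes. Leaving out each library gave 0 to 2 members (Timp2 and Mmp15, without DMM AP20187 61) and 43 to 269 genes. The interaction (26 genes) had 224 genes with DESeq2, 13 with no filter, 56 with limma on log2(FPKM + 1), 90 with DMM vehicle 63 and 64 only, and 12 to 57 on leaving out each library. The causes of these differences were not tested.

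For single genes, 226 values under other settings kept direction and side of the threshold, 20 lost a call, 8 gained one and 10 turned, and on leaving out each library 323 kept both, 40 lost a call, 6 gained one and 11 turned. Directions turned only for log2 fold changes that had no call. In DMM, Mmp2 was 1.01 with vehicle 32 to 34 only and -0.46 to 0.30 on leaving out each library, and with 63 and 64 only Mmp13 was -0.28 and Mmp14 -0.12. In naive mice, limma on log2(FPKM + 1) and log2(FPKM + 0.1) gave -0.11 and -0.11 for Timp3 and -0.091 and -0.11 for Adamts5, where the median over all tested genes was -0.0791 and -0.208, against -0.0662 in edgeR. Leaving out each naive library gave -0.22 to 0.025 for Timp2, -0.047 to 0.18 for Timp3, -0.52 to 0.79 for Timp4, -0.11 to 0.53 for Mmp2 and -0.00048 to 0.13 for Adamts5. For DMM against naive with vehicle, Mmp13 was -0.30 to 2.96 on leaving out each library and -0.40 with DMM vehicle 32 to 34 only.

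The sample numbers 1, 3, 4 and 5 occur in both naive groups. Deviations from the group means correlated by 0.00781, 0.254, -0.0532 and 0.223 for these numbers, so not every pair deviated together, and of each group 2 of 4 libraries correlated best with their own number. The labels do not say what the numbers mark, and the main fit has no block. With the replicate block on these 8 libraries 5 members and 2352 genes were called, and without the block on the same 8 libraries, a fit added after seeing the data, 5 members and 1388 genes. The naive change of Timp2 was 0.045 with the block and 0.041 without it.

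Depth limits the called genes Mmp3 and Mmp27, which had 0 to 51 and 0 to 16 raw counts with vehicle. It also limits the naive call of Mmp12, which had 0 to 51 raw counts in naive vehicle.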
